A study of Arabidopsis thaliana with 4 samples.

Results

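DNA methylation in leaves of the ccr4a ccr4b mutant of Arabidopsis thaliana was compared with that of wild type (WT). The libraries were chosen by their genotype labels, 1 labelled ccr4a ccr4b and 1 labelled wild type, and make up 2 of the 4 libraries of the series. Both were made by enzymatic methyl-seq from the genomic DNA of leaves of plants aged 6 weeks in the Columbia (Col-0) background, grown on soil under long days. The other two libraries, ddm1 rdr2 and the quadruple mutant ccr4a ccr4b ddm1 rdr2, are used here only for values set beside the main pair. DDM1 is a chromatin remodeller needed for methylation of heterochromatin, and RDR2 makes the double-stranded precursors of small RNAs that guide methylation. The labels give no allele names and do not say how many plants were pooled, and DNA methylation offers no marker by which the labelled leaf tissue could be checked. With 1 library per genotype, no test of the genotypes is possible, and every test below compares those libraries only.

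CCR4A and CCR4B are deadenylases of the CCR4-NOT complex, which shortens the poly(A) tails of RNA. Plants methylate cytosines in 3 sequence contexts, where H stands for A, C or T. CG methylation is copied after replication by MET1, CHG methylation is maintained chiefly by CMT3 together with a histone mark of heterochromatin, and CHH methylation is set anew by CMT2 in long heterochromatic elements and by DRM2, which small RNAs guide. Transposons and the repeats around centromeres usually carry methylation in all contexts, while many transcribed genes carry CG methylation alone. The series is titled as a study of RNA quality control, chromatin and centromeres, and this comparison asks which methylation differs when CCR4A and CCR4B are lost.

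The deposited reports list 47652272 nuclear cytosines on chromosomes 1 to 5. They held 774313581 methylated and unmethylated calls in WT and 574097022 in ccr4a ccr4b. The median depth of covered cytosines was 14 calls in WT and 10 in ccr4a ccr4b, and no cytosine had 1 or 2 calls in either library. Levels were compared at cytosines with at least 4 calls in both libraries and no more than 3 times the median, which is 42 calls in WT and 30 in ccr4a ccr4b. This left 12300288 cytosines, 25.8% of those listed. The upper limit took out 32.9% of the cytosines with enough calls, and these had held 63.7% of the WT calls and 76.3% of those of ccr4a ccr4b at such cytosines. It removed 28.1% of them in the chromosome arms, 50.4% in the pericentromere and 2.63% in satellite windows. In the chloroplast, which served as the unmethylated control, the CG level was 0.0861% in WT and 0.108% in ccr4a ccr4b. The CHH level there was 0.0782% in WT and 0.102% in ccr4a ccr4b. Levels and ratios below were not corrected for the control, which weighs most where levels are low.

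Levels below are means over single cytosines, each weighted alike. CHH methylation was lower in ccr4a ccr4b on each of the 5 chromosomes, CG methylation was lower by a smaller share of its level, and CHG methylation was nearly equal. The nuclear CHH level was 3.31% in WT and 2.55% in ccr4a ccr4b, a difference of -0.764 points (95% interval -0.767 to -0.760, 8568637 cytosines) and a ratio of 0.769. The nuclear CG level was 28.1% in WT and 26.7% in ccr4a ccr4b, a difference of -1.35 points (-1.37 to -1.34, 1766588 cytosines) and a ratio of 0.952. The nuclear CHG level was 7.90% in WT and 7.81% in ccr4a ccr4b, a difference of -0.0891 points (-0.0983 to -0.0798, 1965063 cytosines). These intervals cover counting error only, treat reads as independent molecules, which amplified reads without molecular identifiers are not, and say nothing of variation between plants. The CHH difference ran from -0.905 to -0.608 points over the 5 chromosomes and the CG difference from -1.62 to -1.22 points. The CHG difference ran from -0.150 to -0.025 points, and its sign changed with the processing, so no direction is given for nuclear CHG.

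The chromosomes were divided from the files alone into satellite windows, other windows within the span of the satellites, the pericentromere within 2 Mb of that span, and the arms. Satellite windows are those of 10 kb in which at least 50% of the cytosines recur at the repeat length of the centromere satellite. CHH methylation was lower in all 4 kinds of region on all 5 chromosomes. In the arms the CHH level was 1.49% in WT and 1.21% in ccr4a ccr4b, a ratio of 0.814. In the pericentromere it was 10.7% and 8.10%, a ratio of 0.757, and in satellite windows 8.46% and 5.29%, a ratio of 0.626. Satellite values rest on the 5.99% of listed satellite cytosines that were kept, so they describe a small share of those arrays. Calls per listed satellite cytosine were 2.57 in WT and 0.706 in ccr4a ccr4b. At a minimum of 10 calls the CHH ratio was 0.710 in satellite windows, against 0.778 in the pericentromere. With distance from the satellite span the CHH ratio went from 0.734 within 0.1 Mb to 0.846 beyond 5 Mb, whereas the CG ratio stayed between 0.946 and 0.961. Beyond 5 Mb the CHH level was only 0.839% in WT and 0.710% in ccr4a ccr4b. The part of the chloroplast level in this change of ratio was not tested.

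CG methylation followed a like order in points but not in proportion. The arms had 19.3% in WT and 18.5% in ccr4a ccr4b, a difference of -0.845 points, and the pericentromere had 70.1% and 66.8%, a difference of -3.25 points, or -2.06 with no limit on coverage. Satellite windows had 72.6% and 63.0%, a difference of -9.58 points and a ratio of 0.868, or -7.45 points at a minimum of 10 calls. These 3 differences had the same sign on all 5 chromosomes. The other windows of the span differed by -3.66 points, or by -1.79 with no limit on coverage and -6.53 at a C+G content of 30% to 40%, with the CG level lower on 3 chromosomes and higher on the other two.

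CHG methylation did not follow CHH methylation outside the satellites. In the pericentromere the CHG level was 33.5% in both libraries, a difference of 0.0444 points with a counting interval of -0.00639 to 0.0951, higher on 4 chromosomes and lower on 1. This value ran from -0.481 points with a limit of 2 times the median to 0.883 with no limit, so no direction is given for it. In the arms it was 3.18% in WT and 3.10% in ccr4a ccr4b. In satellite windows it was 30.8% and 26.1%, a difference of -4.73 points with the same sign on all 5 chromosomes, and of -2.60 points at a minimum of 10 calls. In windows of 100 kb, CHH was lower in 82.5% of 1318 windows, CG in 84.3% of 1263 and CHG in 59.1% of 1226.

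**Figure D1:**
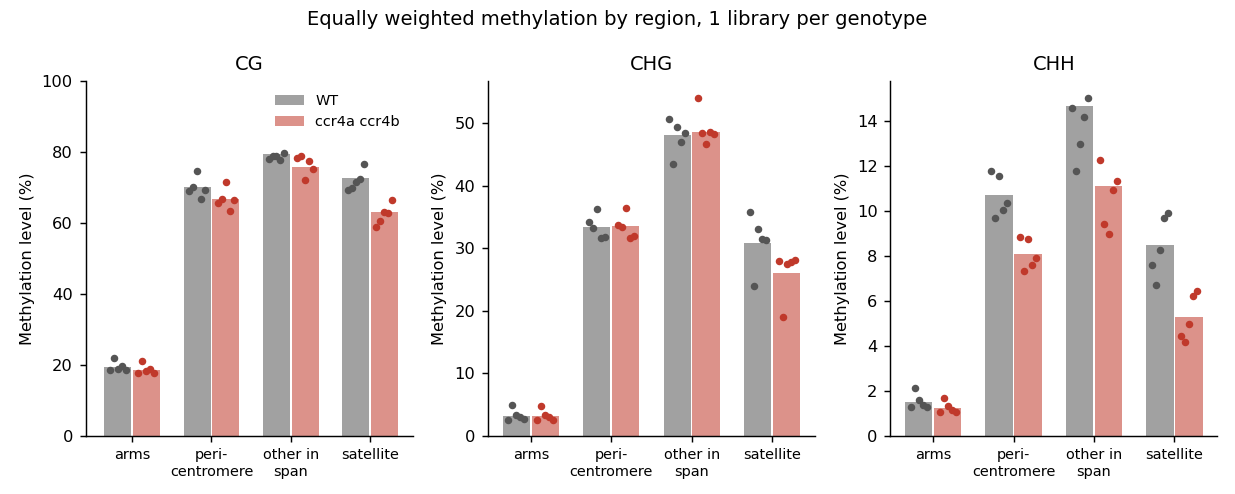
Methylation level (percent, mean of single cytosines) in WT and ccr4a ccr4b by context and region, 1 library per genotype. Bars are the level over all cytosines of the region and points the 5 chromosomes. CHH is lower in ccr4a ccr4b in each region, from 10.7% to 8.10% in the pericentromere, while CHG there is 33.5% in both.

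Dividing each context by its 3 letters showed which cytosines carried the differences. The 4 CG trinucleotides had ratios of 0.950 to 0.953 and were thus alike. Among CHG sites, CAG had a ratio of 0.998 and CTG 0.994, whereas CCG had 0.951, with a difference of -0.310 points. CCG was the lowest of the 3 in the arms (0.936), the pericentromere (0.985) and satellite windows (0.809). CCG is the CHG site whose second cytosine stands in a CG.

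All CHH trinucleotides were lower in ccr4a ccr4b, with nuclear ratios of 0.737 for CAT to 0.841 for CCC. The most methylated ones, CAA and CTA, are those that CMT2 is known to prefer. CAA was at 7.31% in WT and 5.66% in ccr4a ccr4b, and CTA at 8.38% and 6.50%, so they differed most in points, by -1.65 and -1.88. CCT, among the least methylated, was at 0.804% and 0.668%. In satellite windows CAA was at 22.1% and 14.0%, a ratio of 0.634, against 0.778 in the pericentromere and 0.806 in the arms.

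**Figure D2:**
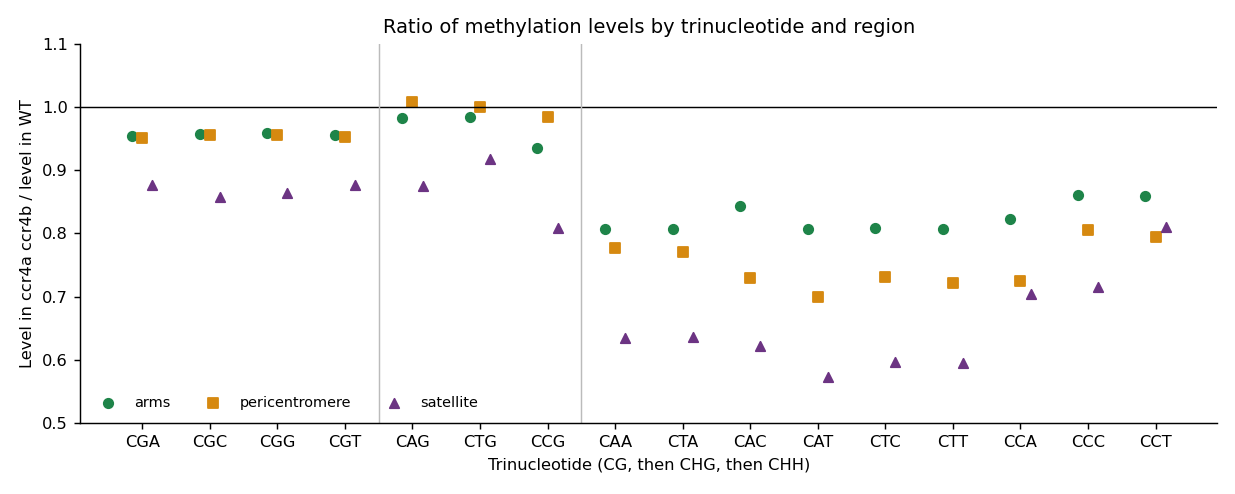
Ratio of the methylation level in ccr4a ccr4b to that in WT, by trinucleotide, in the arms, the pericentromere and satellite windows, 1 library per genotype, on an axis that starts at 0.5. CAG lies at 0.983 in the arms and 1.01 in the pericentromere, while all CHH trinucleotides lie below 1 in each region, with CAT at 0.573 in satellite windows.

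The libraries also differed in how single cytosines were spread. At pericentromeric cytosines with at least 8 calls, thinned to equal depth, the share of CG sites read as fully methylated was 13.9% in WT and 32.5% in ccr4a ccr4b, and that at 0% was 11.1% and 12.8%. CHG sites at 0% made up 22.4% and 33.4%, and CHG sites at 100% made up 1.09% and 7.51%. Thus the equal CHG mean stood over more cytosines at either extreme in ccr4a ccr4b. CHH sites at 0% made up 55.1% in WT and 74.9% in ccr4a ccr4b, while those at 80% or more made up 0.491% and 1.38%. The source of this wider spread was not tested.

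**Figure D3:**
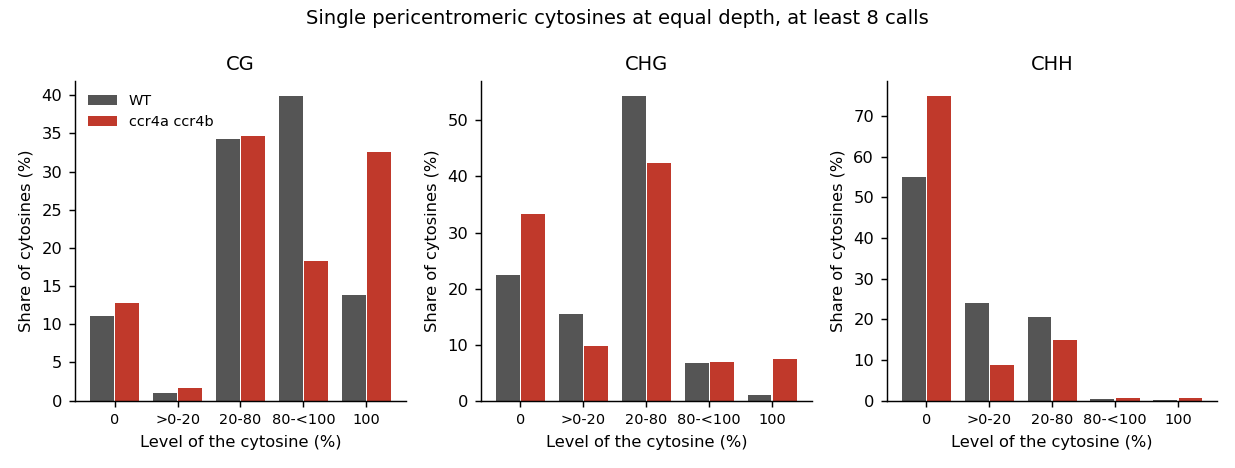
Shares of pericentromeric cytosines (percent) by their own methylation level in WT and ccr4a ccr4b at equal depth, for cytosines with at least 8 calls. In ccr4a ccr4b more CG cytosines stand at 100% (32.5% against 13.9%) and more CHH cytosines at 0% (74.9% against 55.1%).

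Depth in ccr4a ccr4b moved with the CG and CHG differences. At cytosines with 4 to 6 calls in ccr4a ccr4b the CG difference was -1.92 points, and at 21 to 30 calls it was -0.691. The CHG difference over the same classes went from -0.270 to 0.183 points and so changed sign. The CHH ratio was 0.741 in the first class and 0.800 in the last, with differences of -0.776 and -0.881 points. The C+G content of the bin moved with all contexts. From 30% to 35% to 50% or more, the CG difference went from -2.39 to -0.443 points, the CHG difference from -0.582 to 0.0627 and the CHH difference from -1.24 to -0.262. Just inside the upper limit, at 2.5 to 3 times the median, the differences were -0.856 points for CG, 0.223 for CHG and -0.821 for CHH. Just outside it, at 3 to 3.5 times, they were -0.734, 0.300 and -0.873, so the signs were the same on either side of the limit. At exactly 4 calls in the shallower library they were -2.13, -0.381 and -0.836, and at 3 calls, just under the minimum, -2.38, -0.459 and -0.852. The part of depth and C+G content in these differences was not tested further.

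The cytosines over the limit bear on how a level is weighted. There the mean of single cytosines was 39.9% in WT and 39.3% in ccr4a ccr4b for CG, but the methylated share of all calls was 41.5% and 45.5%. For CHG the mean went from 18.8% to 19.4% and the share of calls was higher by 3.29 points. CHH differed by -1.22 points in the mean and by -0.858 points in the share of calls. Weighting by calls therefore turned the CG direction at these deep cytosines, while CHG was higher and CHH lower by both measures.

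Bins of 100 bp with at least 4 cytosines of a context were compared by a two-sided Fisher's exact test of their summed calls, with Benjamini-Hochberg adjustment over every bin of that context. Calling a bin took an adjusted p under 0.01 and a gap in level of 40 points or more for CG, 20 for CHG and 10 for CHH. In CHH, 13474 of 499546 bins were lower in ccr4a ccr4b (2.7%) and 4649 were higher (0.931%), 3.63% called in all. In CG, 4002 of 196738 bins were lower (2.03%) and 1768 higher (0.899%), 2.93% in all. In CHG, 1986 of 229132 bins were lower (0.867%) and 1975 higher (0.862%), 1.73% in all. Lower bins thus outnumbered higher ones in CHH and CG, and CHG was even.

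The same rule applied between strands of 1 library gave the background for the CG and CHG counts. It was not run for CHH, so the CHH counts have no such background. CG sites are usually methylated alike on both strands. Over 142386 CG bins, the + and - strands differed in 0.611% within WT and in 5.02% within ccr4a ccr4b, with 3602 and 3547 bins in the opposite directions. The + strands of ccr4a ccr4b and WT differed in 4.07%, with 1633 higher and 4157 lower. The number of CG calls between the libraries is therefore no larger than that between strands of ccr4a ccr4b. Calls between libraries were uneven in direction. The strand control cannot be set against that, since which strand is + is arbitrary and its calls are even by design. In the pericentromere the strands of ccr4a ccr4b differed in 12.2% of bins and the + strands of the libraries in 6.62%. In satellite windows these shares were 22.3% and 14.2% of 1010 bins. In CHG, over 149900 bins, the strands differed in 0.472% within WT and in 2.77% within ccr4a ccr4b, and the + strands of the libraries in 1.56%.

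Bins in which both strands passed the size threshold were counted apart. They numbered 791 higher (0.556%) and 1143 lower (0.803%) in CG. CHG had 657 higher (0.438%) and 705 lower (0.47%), and CHH had 577 higher (0.221%) and 3031 lower (1.16%). CHH stayed uneven on both strands, since 43.4% of the lower bins that could be read on both strands passed on both, against 27.3% of the higher ones. In CG the order was the other way, 43.8% of lower and 60.1% of higher bins.

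The share of bins called differed between regions. In CHH it was 1.72% of 399278 bins in the arms (2129 higher and 4753 lower), 10.8% of 81620 in the pericentromere (1891 and 6930), 11.9% of 14589 in satellite windows (485 and 1249) and 16.9% of 4059 in the other windows of the span (144 and 542). In CG it was 2.61% of 164147 bins in the arms (1564 and 2721), 4.09% of 29931 in the pericentromere (179 and 1044) and 12.9% of 1610 in satellite windows (19 and 188). Lower bins outnumbered higher ones in each of these. In CHG it was 0.761% of 195824 bins in the arms (714 and 777) and 7.21% of 31646 in the pericentromere (1162 and 1120), with the directions close to even.

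Bins were then divided by their starting level in WT. The WT value enters both the class and the difference, so measurement error alone raises the lowest class and lowers the highest, and the class was therefore set in other ways too. By WT level, CG bins under 10% went from 0.168% to 0.926%. Of these 116232 bins, 795 were higher (0.684%, against 0.899% of all CG bins) and 0 lower, since a fall of 40 points is not possible there. Both strands passed in 440 of the higher ones. CG bins at 80% or more went from 87.4% to 78.8%, with 2248 lower (6.23%) and 0 higher, since a rise of 40 points is not possible there. CHG bins at 50% or more differed by -4.60 points, with 1281 lower and 462 higher. CHH bins at 25% or more went from 38.2% to 25.4%, with 4553 lower (35.1%) and 504 higher, and those at 10% to 25% differed by -4.38 points, with 8921 lower (15.7%) and 1579 higher.

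Setting the class by every other cytosine of the WT bin and reading the difference at the rest made the top classes smaller. They became -5.85 and -5.71 points in CG, -2.25 and -2.10 in CHG, and -9.22 and -8.97 in CHH for the 2 ways of dividing the cytosines. The medians were 0 and -0.19 points in CG but -8.33 and -8.08 in CHH, so that CG bins lay about evenly on either side of no difference while most such CHH bins were lower. When the ccr4a ccr4b level set the class, the top classes turned to +9.31 points in CG, +10.8 in CHG and +12.0 in CHH. Every other cytosine of the ccr4a ccr4b bin as the base gave +0.852 and +0.662 points in CG, +2.95 and +2.62 in CHG, and +5.85 and +5.75 in CHH. Set in that way, the CG top class was -0.249 and -0.432 points in the pericentromere and -2.18 and -3.63 in satellite windows, and so had the same sign there as when WT set it. Over the nucleus the direction of the top class followed the library that set it, and no direction is given for it. Over the nucleus the direction of the mean was the same in each of these settings for CG bins at 40% to 80%, and for CHH bins at 2% to 10% and at 10% to 25%, all lower in ccr4a ccr4b. The CHH class at 10% to 25% differed by -3.74 and -3.77 points with divided cytosines and by -3.34 points when the mean of both libraries set the class, with 7266 bins lower and 2325 higher. With the class set by ccr4a ccr4b it differed by -0.35 points, with a median of 0.22, and with divided cytosines of ccr4a ccr4b by -1.70 and -1.91 points. That at 2% to 10% differed by -0.71 points by WT level, by -1.83 and -1.89 with divided cytosines, and by -4.18 by the mean. The CG class at 40% to 80% differed by -0.795 points by WT level, though its median was 1.59, and by -7.84 by the mean.

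**Figure D4:**
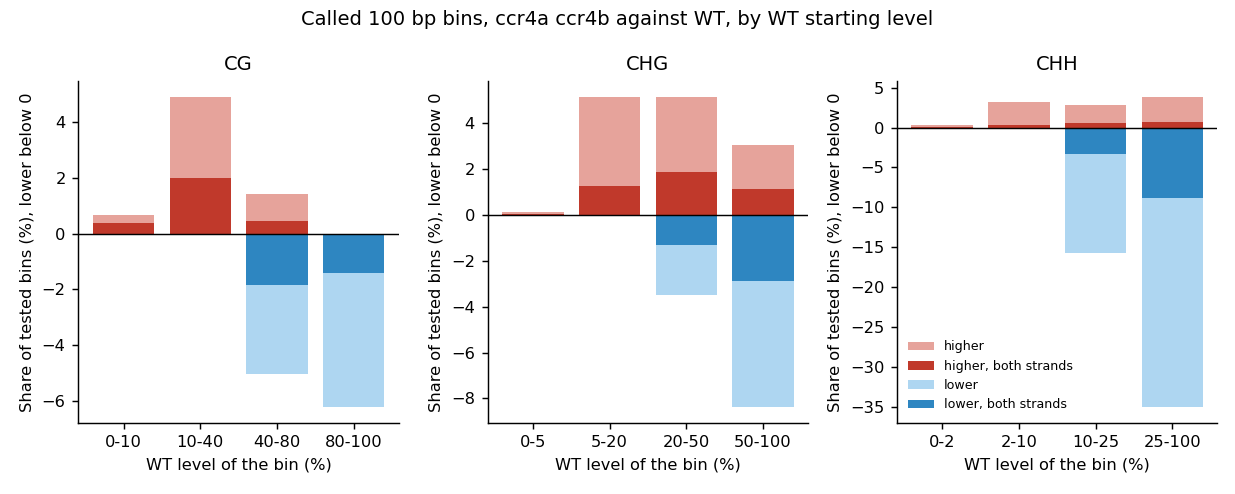
Share of tested 100 bp bins (percent) called higher (above 0) or lower (below 0) in ccr4a ccr4b, by the WT level of the bin and context, with the darker part for bins in which both strands passed the size threshold. Of CHH bins at 25% or more in WT, 35.1% were lower, and of CG bins at 80% or more, 6.23%; the vertical axes differ between contexts.

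Bins that could be read in all 3 contexts, 127724 in number, were sorted by their WT state. Of these, 24422 carried CG methylation only, the pattern of many transcribed genes. Their CG level was 70.1% in WT and 64.5% in ccr4a ccr4b, with 6.74% of bins lower and 1.07% higher, and their CHG and CHH levels stayed near 0. The 17684 bins with both CG and CHG methylation, the pattern of transposons, had a CG level of 82.5% and 79.0%, with 3.10% lower. In those bins CHH was at 11.7% in ccr4a ccr4b, a difference of -3.32 points and a ratio of 0.779, with 11.1% of bins lower and 2.54% higher. The 74570 unmethylated bins averaged close to 0, with CG at 0.145% and 1.03%. Of them, 595 were called higher in CG (0.798%), against 0.957% of all 127724 bins, and a lower call is not possible there. The states were read from WT, so the limit stated for starting levels holds here too.

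Calls in different contexts overlapped more in the same direction than in opposite ones. The contexts of a bin, and bins side by side, can be read from the same reads. Their calls are thus not independent, and the part of shared reads in the overlaps below was not tested. Over all CHH bins tested, 2.7% were lower and 0.931% higher. Of 1966 bins lower in CHG that could be read in CHH, 717 were also lower in CHH (36.5%) and 5 were higher. Of 1958 bins higher in CHG, 343 were higher in CHH (17.5%) and 40 lower. Of 3919 bins lower in CG, 438 were lower in CHH (11.2%) and 17 higher. A bin can be called lower only if it was methylated in WT, so the share over all bins is a low base. Of the 17684 bins with both CG and CHG methylation in WT, 11.1% were lower in CHH and 2.54% higher. The share for bins lower in CG is close to that. Lower CHH bins also lay side by side. Of 10517 with a testable next bin, 2508 were followed by another lower bin and 192 by a higher one. Of 3490 higher CHH bins, 567 were followed by a higher and 159 by a lower one. Called bins at most 100 bp apart merged into 10076 lower CHH regions, of which 620 held at least 3 bins and the longest 8. In CG, 12 of 3803 lower and 6 of 1707 higher regions held at least 3 bins, and 3617 and 1655 were a single bin.

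For each context and direction, the 3 regions with the most called bins outside satellites are described, given at least 1 bin with both strands past the threshold. For the first of each, the stretch of 30 bases with the most readable cytosines of the context is printed, since these letters show where the calls lie. Letters come from the trinucleotides of the deposited reports on the build of those files, + strand, 5′ to 3′. Capitals mark cytosines of the context that were compared, C on the + strand and G for a cytosine on the - strand, and n is a letter the reports do not fix. The regions carry no gene names, since they were not set against an annotation.
CG higher, chr1:23475523-23475552: tgCGagnaCGaaggtgcatgtgagaCGaCG
CG lower, chr2:10760854-10760883: ttgctagtgnnttgCGCGgcagtgnttgCG
CHG higher, chr4:16562257-16562286: caCaGggnnncCaGnnCcgacacttnCcgt
CHG lower, chr2:13168623-13168652: cCagnncacaanCtgcCtgcaaCagtagat
CHH higher, chr2:9011877-9011906: CtCatCtCaCCCttCttCtCCttGGtGCta
CHH lower, chr4:8969868-8969897: aGttGCCaaaGGGnttGnnCaaGaaGaaGG

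The largest region higher in CG spans chr1:23475401-23475900 in the arm. Its CG level was 0.94% in WT and 74.6% in ccr4a ccr4b (38 cytosines, 5 called bins, largest adjusted p 1.24e-09 by Fisher's exact test). It was 0 of 356 calls in ddm1 rdr2 and 0 of 435 in the quadruple mutant, which allows up to 0.843% and 0.690%, if 3 calls are taken as the limit that a count of 0 allows. Such limits, here and below, treat calls as independent. A single read can give calls at several neighbouring cytosines, so the limits are too narrow. In the stretch printed for this region, 0 of 86 calls were methylated in WT (up to 3.49%) and 70 of 102 in ccr4a ccr4b. CHG there was at 0.265% and 36.6%, and CHH at 0.446% and 6.39%. All 3 contexts were thus methylated far above the others in ccr4a ccr4b, at like depth of 12.2 and 11.6 calls per cytosine in the main pair. Its strands had 79.7% and 69.5% in ccr4a ccr4b.

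The other two regions higher in CG were already part methylated in other libraries. At chr1:20113501-20113900 the CG level was 12.5% in WT and 77.8% in ccr4a ccr4b, against 41.2% in ddm1 rdr2 and 43.2% in the quadruple mutant. At chr3:133301-133600 it was 2.90%, 79.0%, 22.9% and 21.1% in the same order, and CHG there was at 0 of 211 calls in WT (up to 1.42%) and 62.6% in ccr4a ccr4b. The WT library was the least methylated of the 4 at both.

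The largest region lower in CG spans chr2:10760801-10761100 in the arm. Its CG level was 85.7% in WT and 15.8% in ccr4a ccr4b, against 12.2% in ddm1 rdr2 and 10.3% in the quadruple mutant (21 cytosines, 3 called bins, largest adjusted p 5.68e-14 by Fisher's exact test). In the printed stretch, 139 of 154 calls were methylated in WT and 0 of 118 in ccr4a ccr4b, which allows a level of up to 2.54%. CHG was at 6.70% in WT and at 0 of 239 calls in ccr4a ccr4b (up to 1.26%), so that the difference here lay mainly in CG. At chr2:9547001-9547300 the CG level was 67.4% in WT. There ccr4a ccr4b had 0 of 121 calls methylated over 19 cytosines (up to 2.48% if calls were independent). The depth was 27.1 calls per cytosine in WT and 4.17 in ccr4a ccr4b, so few reads bear on that limit. At chr2:8773701-8774000 all contexts were lower, with CG at 84.5% and 19.0%, CHG at 65.1% and 7.58%, and CHH at 33.0% and 2.37%, at 8.01 and 7.10 calls per cytosine.

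The regions higher in CHG in part repeat those higher in CG. At chr4:16561901-16562400 the CHG level was 8.59% in WT and 52.3% in ccr4a ccr4b, against 67.0% in ddm1 rdr2 and 83.9% in the quadruple mutant (35 cytosines), and CHH was at 0.387% and 0.497% in the main pair. In its printed stretch, 27 of 106 calls were methylated in WT and 68 of 100 in ccr4a ccr4b. At chr3:133401-133900 CHG was at 1.35% in WT and 55.5% in ccr4a ccr4b, and at chr1:23475401-23475800 at 0 of 197 calls (up to 1.52%) and 41.9%. The last of these overlaps the largest region higher in CG, and the one before it the third.

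The first of the regions lower in CHG had nearly equal CG levels. At chr2:13168601-13169300 the CHG level was 45.4% in WT and 1.53% in ccr4a ccr4b (34 cytosines, 29 of them on the + strand). It was 0.888% in ddm1 rdr2 and 0.085% in the quadruple mutant. CG there was at 87.4% in WT and 83.2% in ccr4a ccr4b. In the printed stretch of this region, 50 of 73 calls were methylated in WT and 0 of 48 in ccr4a ccr4b (up to 6.25% if calls were independent). The 48 calls come from 4 cytosines on the + strand with 12 calls each. At chr2:19931201-19931800 CHG was at 70.5% and 36.3%, against 65.9% in ddm1 rdr2 and 69.6% in the quadruple mutant. At chr4:8498401-8498900 in the pericentromere it was at 57.8% and 19.5%, against 7.65% in ddm1 rdr2 and 18.2% in the quadruple mutant. At both, the other contexts were lower too. CG was at 87.9% and 61.3% in the former and 83.3% and 54.4% in the latter, and CHH at 21.9% and 5.01% and at 18.8% and 4.46%.

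In CHH, the longest lower region spans chr4:8969001-8969900 in the pericentromere, with 8 called bins, 1 of them with both strands past the threshold. Of its CHH cytosines compared, 149 lay on the + strand and 11 on the - strand. Its CHH level was 21.2% in WT and 5.80% in ccr4a ccr4b, against 4.83% in ddm1 rdr2 and 2.84% in the quadruple mutant (160 cytosines). CG there was at 87.5% and 76.4%, and CHG at 43.9% and 49.8%, so CHH was lower by a far larger share than CG, and CHG was not lower. In its printed stretch, 30 of 85 calls were methylated in WT and 10 of 142 in ccr4a ccr4b. At chr2:9746201-9747000 CHH was at 41.6% and 17.9%, and at chr1:4335201-4336200 at 28.0% and 11.2%, both in the arms.

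Higher CHH was found at chr2:9011501-9012200, with 2.87% in WT and 19.2% in ccr4a ccr4b, against 1.41% in ddm1 rdr2 and 0.601% in the quadruple mutant (197 cytosines). In its printed stretch, 11 of 183 calls were methylated in WT and 21 of 87 in ccr4a ccr4b. CHG there was at 20.9% and 45.9%. At chr4:8646101-8646800 in the pericentromere CHH was at 15.2% and 36.1%, and at chr2:10988401-10989100 it was at 0 of 1284 calls (up to 0.234%) and 24.9%. The latter had no methylated call in any context in WT and had CG at 25.8% and CHG at 16.0% in ccr4a ccr4b. Over all 18 regions the largest adjusted p by Fisher's exact test was 0.00853. The rule for calling bins fixed it under 0.01, so it is no further support.

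**Figure D5:**
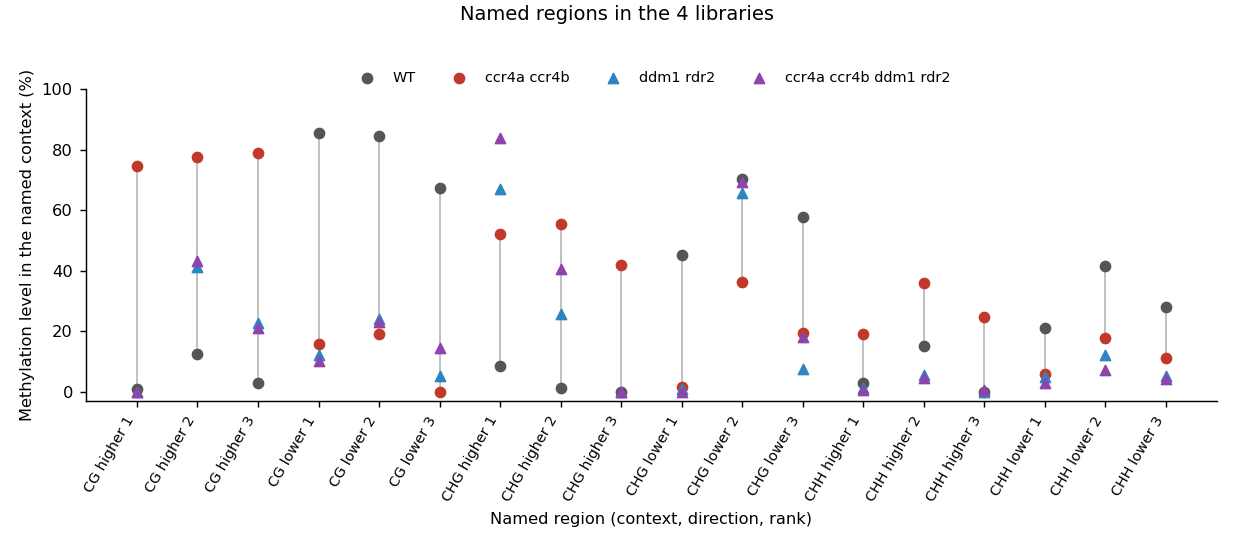
Level (percent) of the named regions in their own context in all 4 libraries, 1 library per genotype. The first region higher in CG is at 74.6% in ccr4a ccr4b and at most 0.94% in the others, while the first region lower in CG is at 85.7% in WT and at most 15.8% in the others.

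The bins called between ccr4a ccr4b and WT were read in the other two libraries, which were not used to call them. The 11241 lower CHH bins covered in all libraries averaged 22.8% in WT and 5.51% in ccr4a ccr4b, against 6.71% in ddm1 rdr2 and 5.05% in the quadruple mutant. In these bins the median of the quadruple mutant minus ddm1 rdr2 was -0.222 points, against 0 over all bins tested, and 51.9% were lower and 36.0% higher, against 18.9% and 16.8% of all. The 3875 higher CHH bins leaned the same way, with 44.6% lower and 30.8% higher, so the lean did not follow the direction of the call. The 1658 higher CG bins averaged 20.7%, 73.1%, 35.5% and 42.9% in the same order, with a median of 2.37 points for that difference. The 3486 lower CG bins averaged 76.6%, 23.2%, 36.2% and 32.9%, with a median of 0. CHG bins called in either direction had a median of 0 as well.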

How the data were processed

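Genomic DNA of leaves was profiled by enzymatic methyl-seq, in which enzymes protect methylated cytosines and convert the others. Libraries took 100 ng of DNA and 13 PCR cycles, per the labels' protocols. The authors deposited counts of methylated and unmethylated calls for each cytosine and strand, with context and trinucleotide, made with Bismark 0.22.3, per the submitters' processing notes. How PCR duplicates and multiply mapped reads were treated, and the genome build, are not given in the sources used here beyond a reference named in the deposited files, so coordinates are those of the build of the deposited files.

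Groups were taken from the genotype labels. Levels, differences, Fisher's exact tests and merged regions were computed from the counts with Python 3.11.15, numpy 2.4.6, pandas 2.3.3, scipy 1.17.1 and numba 0.67.0, and the figures drawn with matplotlib 3.10.9. For the other two libraries, cytosines with at least 4 calls were read with no upper limit inside named regions. Intervals are normal ones at 95% for counting error. The bin test was checked on simulated data with independent calls at each cytosine. That check does not cover wider spread, such as that between the strands of ccr4a ccr4b. Named regions are, per context and direction, the 3 merged regions outside satellite windows that hold the most called bins, with at least 1 bin with both strands past the size threshold, ties by the larger difference. Gene windows were planned but not analysed here, since no promoter table or annotation of the build was used. The comparison, its limits on coverage and the lists were chosen with earlier results of these data known. Alternatives were other limits on calls and coverage, pooled calls, other bin lengths and thresholds, thinning to equal depth, a band of C+G content, both strands, and other ways to set starting classes.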

Additional observations from a re-analysis of the deposited data

Results flagged for a closer look

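The nuclear CG difference between libraries with and without the ccr4a ccr4b mutations had opposite signs in the 2 backgrounds. In WT background it was -1.35 points, lower on 5 of 5 chromosomes. In ddm1 rdr2 background it was 0.142 points, from 12.3% to 12.4%, and lower on 1 of 5 chromosomes. These differences come from unlike sets of 1766588 and 2979021 cytosines. At the 1512349 cytosines kept in both pairs, a set chosen after seeing the data, they were -1.28 and 0.211 points. With 1 library per genotype, the difference between the backgrounds was not tested. For CHH the ratios were 0.769 in WT background and 0.771 in ddm1 rdr2 background, where the level went from 1.45% to 1.12%, lower on 5 of 5 chromosomes in both. At the cytosines kept in both pairs the CHH ratios were 0.776 and 0.769.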

How the results depend on the processing

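With 1 library per genotype, leaving out a replicate leaves no comparison, and no p-value speaks for the genotypes. No paired analysis was possible because the groups compared share only 1 replicate number. The CG and CHH nuclear differences were negative under all alternatives run, and the CHG difference was not. Pooled calls were run only with the limit on coverage in place. At the cytosines over that limit, the methylated share of CG calls was higher in ccr4a ccr4b by 3.99 points. The CG direction thus depends on the limit when calls are pooled.

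For the nucleus, pooled calls gave -1.05 points in CG, 0.0918 in CHG and -0.692 in CHH. No limit on coverage gave -1.05, 0.152 and -0.903, and a limit of 2 times the median -1.56, -0.200 and -0.757. A minimum of 1 call, in effect 3 since no cytosine had 1 or 2 calls, gave -1.49, -0.139 and -0.778. A C+G content of 30% to 40% gave -2.13, -0.306 and -1.08. A minimum of 10 calls gave -0.939 in CG and 0.0921 in CHG. In the pericentromere the CHG difference was -0.110 with pooled calls, -0.481 with the limit of 2 times the median and with that C+G content, -0.159 at a minimum of 1 call and -0.0447 within 3 Mb, and 0.883 with no limit and 0.754 at a minimum of 10 calls. CHG also changed sign in the arms with pooled calls (0.0972), and in the other windows of the satellite span with the limit of 2 times the median (-0.261) and with that C+G content (-1.57).

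Counts of bins are given as higher and lower. A minimum of 10 calls gave 595 and 1075 in CG, 1029 and 922 in CHG, and 2152 and 6867 in CHH. Both strands gave 791 and 1143, 657 and 705, and 577 and 3031. Size thresholds times 1.5 gave 370 and 1083 in CG, 1170 and 1310 in CHG, and 7455 lower in CHH, and thresholds times 0.5 gave 6245 and 10656 in CG. Thinning to equal depth gave 1119 and 1139 in CHG. Bins of 200 bp gave 1081 higher in CG and 2827 and 8654 in CHH, and bins of 300 bp gave 673, 2042 and 6609. Lower bins outnumbered higher ones in CG and CHH in all of these that give both, and CHG did not keep an order. The other 27 counts stayed within 1.5 times the main count.

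Classes set by the ccr4a ccr4b level turned the sign, from 0%, 10% and 80% in CG to -1.20, -11.7 and 9.31 points, from 0%, 5%, 20% and 50% in CHG to -0.286, -8.54, -4.16 and 10.8, and from 0% and 25% in CHH to -0.766 and 12.0. Classes set by the mean of both libraries, an alternative chosen after seeing the data, turned the same classes to -0.0621, -3.81 and 3.74 in CG, to -0.0507, -3.18, -2.67 and 4.99 in CHG, and to -0.0570 and 1.78 in CHH. The CG class from 10% was -0.576 and -0.700 with divided cytosines. Classes set by divided cytosines of ccr4a ccr4b, also chosen after seeing the data, gave for the same classes -1.04 and -1.03, -4.60 and -5.08, and 0.852 and 0.662 in CG. In CHG they gave -0.146 and -0.163, -2.06 and -1.98, -0.563 and -0.711, and 2.95 and 2.62, and in CHH -0.685 and -0.701, and 5.85 and 5.75.

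The named regions kept at least 1 called bin in all 142 pairs of a region and a setting in which they had bins tested. They were chosen in these data for the most called bins, and halved thresholds cannot remove a call, so this is a weak check. At a minimum of 10 calls some kept all their called bins and others fewer. The first region higher in CHH had 3 against 6 in the main setting, and the third lower in CHH 4 against 7. The second and the third region lower in CG had none tested at a minimum of 10 calls. Low depth limits the satellites, where few cytosines had enough calls, and bins of low C+G content.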
